A study of Homo sapiens with 9 samples.

Results

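The genes described here are 41 transcripts of the NF-kB system: its transcription factors, their inhibitors, the adaptors and kinases upstream of them, and inflammatory mediators that they switch on. They were chosen by gene symbol, and 33 of the 41 had an entry among the 13410 genes of the authors' deposited table. BIRC3, LTA, IL6, CXCL2, CXCL3, CCL3, CCL4 and CCL5 had none and were not analysed here, so of 13 cytokines, chemokines and their antagonist 6 could be described. The cells were MV4-11, an established line of acute myelomonocytic leukaemia that carries an MLL fusion and an activating duplication in the receptor kinase FLT3. They were kept for 18 h in the vehicle DMSO, in 100 nM JB170 or in 1000 nM alisertib, with 3 libraries for each group and 9 in all. JB170 is the degrader of Aurora A kinase to which the series title refers, and alisertib inhibits the kinase activity of Aurora A. All groups were 1 cell line with no other change named in the labels, and since no label ties a library to a culture of its own, the spread behind the p-values may be technical. The table also holds comparisons headed A100 and MK, which match no group in the labels; no source used here gives their treatment, dose, time or number of libraries, and they are called by their headers.

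Every value below is the authors' log2 fold change, p-value or adjusted p-value against DMSO, written as treated minus DMSO. The table gives no value per library, so the spread within a group and the depth are unknown. The 95% intervals were worked back from each fold change and its p-value. Where the p-value was large (z under 1), the median error of genes at a similar mean level was used in place of the gene's own. No header states the sign of a column; it was inferred from the values, since as deposited JB170 runs against the other 3. Were only JB170 read the other way, each JB170 value here would change sign. Were all 4 columns turned together, every value here would change sign, and the 3 called member values would be lower than DMSO. Of 13 markers of the line 12 had an entry, FCGR1A being the exception, and the T-cell receptor genes CD3D, CD3E and CD3G had none. All comparisons are headed with DMSO and were taken to share the same DMSO group, which no source used here states for columns A100 and MK. Values of a gene in several columns therefore do not count as separate evidence. In a bulk culture a change in the mix of cell states and a change in RNA per cell cannot be told apart.

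NF-kB factors are dimers held in the cytoplasm by inhibitors of the IkB family. Signals from receptors of the tumour necrosis factor, interleukin-1 and Toll-like families reach an IkB kinase complex through TRAF adaptors, and the freed dimers then switch on cytokines, chemokines, survival genes and their own inhibitors. Transcripts such as NFKBIA and TNFAIP3 are therefore commonly used as readouts of the pathway. In monocytic cells the system drives the production of interleukin-1 and of chemokines.

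Promoters of 4 genes are shown, IL1B and IL1RN because the authors' test called them, NFKBIA as the textbook feedback target and BCL3 as the member nearest to the threshold without passing it. Each runs from 250 bases before the transcript start to 20 after it, on the gene's own strand, from the RefSeq promoter table on GRCh38.p14. Capitals mark the 10 bases that match the kappaB consensus. The windows are chr2:112836760-112837029 on the minus strand for IL1B, chr2:113117721-113117990 on the plus strand for IL1RN, chr14:35404730-35404999 on the minus strand for NFKBIA and chr19:44748458-44748727 on the plus strand for BCL3.
IL1B: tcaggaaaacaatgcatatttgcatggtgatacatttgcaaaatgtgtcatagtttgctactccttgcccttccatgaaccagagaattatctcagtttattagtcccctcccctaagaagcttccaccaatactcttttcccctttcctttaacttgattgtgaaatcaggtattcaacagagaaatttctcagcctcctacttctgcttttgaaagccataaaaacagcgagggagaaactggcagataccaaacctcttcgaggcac
IL1RN: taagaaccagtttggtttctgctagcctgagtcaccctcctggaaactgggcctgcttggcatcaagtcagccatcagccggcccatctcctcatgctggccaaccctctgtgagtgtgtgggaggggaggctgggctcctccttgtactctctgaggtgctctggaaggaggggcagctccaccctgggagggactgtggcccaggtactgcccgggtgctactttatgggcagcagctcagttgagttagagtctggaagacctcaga
NFKBIA: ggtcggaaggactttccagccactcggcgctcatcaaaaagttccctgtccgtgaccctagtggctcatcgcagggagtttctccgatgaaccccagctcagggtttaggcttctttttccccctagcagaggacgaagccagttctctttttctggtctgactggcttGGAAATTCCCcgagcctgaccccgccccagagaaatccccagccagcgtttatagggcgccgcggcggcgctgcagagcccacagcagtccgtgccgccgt
BCL3: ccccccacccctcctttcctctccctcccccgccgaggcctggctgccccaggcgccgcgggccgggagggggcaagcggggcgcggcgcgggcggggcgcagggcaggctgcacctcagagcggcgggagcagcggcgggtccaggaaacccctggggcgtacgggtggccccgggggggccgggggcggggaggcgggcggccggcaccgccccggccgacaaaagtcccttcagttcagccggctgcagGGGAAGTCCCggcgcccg
The consensus was searched for on both strands in the full windows of 250 bases before and 50 after the start, and overlapping matches were kept. A promoter was found for 27 of the 33 members, all but RELB, NFKBIE, RIPK2, CCL2, SOD2 and IER3. A match lay in 8 of the 27 (29.6%), against 12.9% of the 9871 promoters matched to genes of the table and 11.3% of all 35116 promoters. The 8 were NFKB1, REL, NFKBIA, NFKBIZ, BCL3, TNFAIP3, MAP3K8 and LTB, with paired matches in REL, BCL3, TNFAIP3 and LTB. The match of NFKBIA began 81 bases before the start and that of BCL3 at base 3 of the transcript, where the same bases match on both strands. No match was found in the windows of IL1B and IL1RN, which says only that these letters do not stand there.

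Few of the members differed from DMSO. Of 132 member values in the 4 comparisons, the authors' deposited table has 3 with an adjusted p under 0.05, all of them higher than DMSO. With 100 nM JB170 0 of 33 members passed, where 0.0298% of all genes did, and at an unadjusted p under 0.05 the authors' deposited table held 1 member, against 3.02% of all genes. With 1000 nM alisertib 1 of 33 passed (3.03%), beside 5.92% of all genes, and 5 had an unadjusted p under 0.05 (15.2%, against 17.6% of all genes) in the authors' deposited table. In column A100 0 of 33 passed, beside 1.30% of all genes, and 7 had an unadjusted p under 0.05 (21.2%, against 11.6%) in the authors' deposited table. In column MK 2 of 33 passed (6.06%), beside 0.470% of all genes, and 8 had an unadjusted p under 0.05 (24.2%, against 8.65%) in the authors' deposited table. Shares with JB170 and alisertib thus lay near or under those of all genes, while both shares of column MK and the unadjusted share of column A100 lay above.

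The limits of these tests differ among members. With JB170 20 of 33 intervals lay within 0.5 of 0 on the log2 scale and 26 within 1, and with alisertib 17 and 27 did. The widest intervals were those of members with few reads: 7 members had a mean under 2 log2 CPM (CPM, read counts scaled to the size of the library), among them IL1B (0.44), PTGS2 (0.33), IRAK2 (0.53) and IL8 (1.31) in the authors' deposited table. With JB170 the intervals of IL1B, IRAK2, IL8, PTGS2, NFKBIZ, REL and IER3 reached beyond 1.

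**Figure D1:**
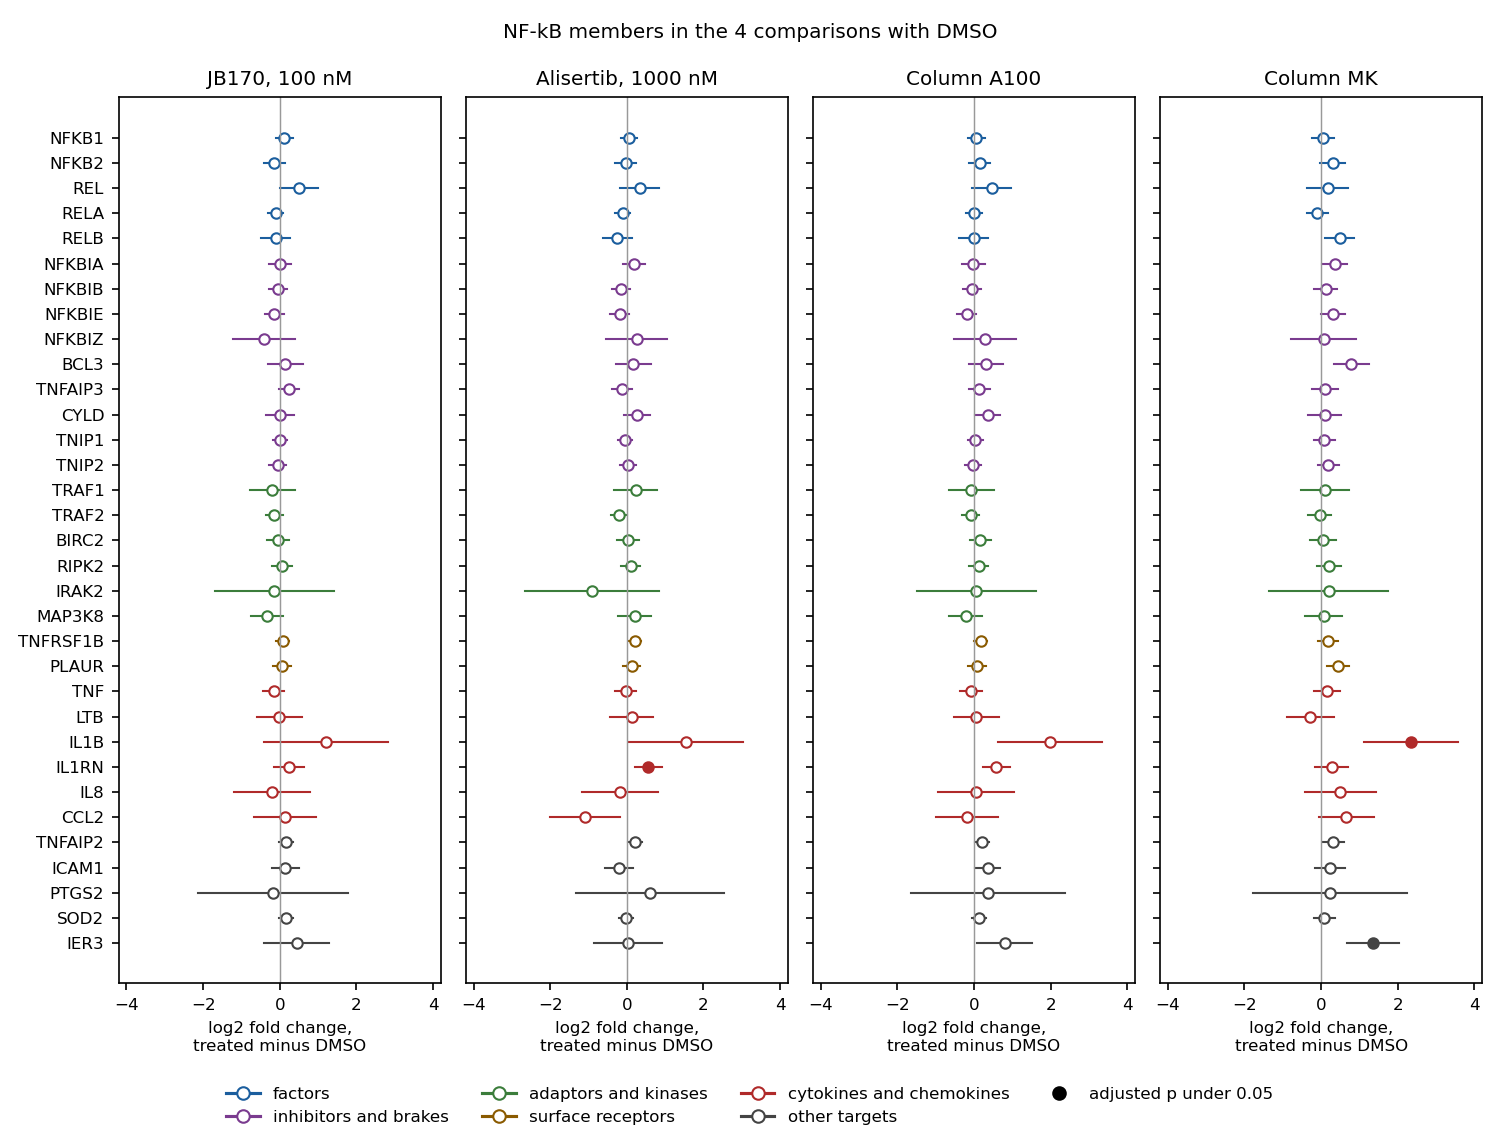
Log2 fold change against DMSO of the 33 members, coloured by role, in the 4 comparisons; bars are 95% intervals worked back from the authors' p-values and filled points have an adjusted p under 0.05. The 3 filled points are IL1RN with alisertib (0.56) and IL1B (2.36) and IER3 (1.36) in column MK, and the bars are widest for IL1B, IRAK2, IL8 and PTGS2.

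The 5 factors were not called in any column. For RELA, the main activating subunit, the authors' deposited table gave -0.11 with JB170 (interval -0.31 to 0.09) and -0.11 with alisertib (-0.31 to 0.09). NFKB1, the precursor of the p50 subunit, stood at 0.11 and 0.06 in the same order in the authors' deposited table. For both genes the intervals in these comparisons lay within 0.5 of 0. REL, a subunit used mostly in blood cells, had the smallest p of any member with JB170, at 0.51 (p = 0.0470, adjusted p = 1), and stood at 0.33 with alisertib, 0.46 in column A100 and 0.17 in column MK in the authors' deposited table. RELB, the partner of the p52 subunit in the non-canonical branch, stood at -0.10 with JB170, -0.25 with alisertib, -0.01 in column A100 and 0.48 in column MK (p = 0.0138, adjusted p = 0.404) in the authors' deposited table. NFKB2, the precursor of p52, stood at -0.14, -0.03, 0.15 and 0.30 in that order of columns in the authors' deposited table. RELB and NFKB2 thus had their highest value in column MK, and no factor passed the adjusted threshold there.

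Among the 9 genes grouped here as inhibitors and brakes, which include the nuclear IkB family member BCL3, none was called either. The label is a grouping of the list and was not tested as a function. For NFKBIA, which encodes IkB alpha, the authors' deposited table gave 0.01 with JB170 (interval -0.28 to 0.30) and 0.19 with alisertib (-0.09 to 0.48). It stood at -0.02 in column A100 and 0.35 in column MK (p = 0.0416, adjusted p = 0.550) in the authors' deposited table. TNFAIP3, which encodes the ubiquitin-editing enzyme A20, stood at 0.23 with JB170 (p = 0.0770, adjusted p = 1), -0.14 with alisertib, 0.14 in column A100 and 0.10 in column MK in the authors' deposited table. These feedback transcripts were thus not shown to differ from DMSO with JB170 or alisertib, with intervals that stay within 0.5 of 0. BCL3, a nuclear member of the IkB family that binds p50 and p52, stood at 0.15 with JB170, 0.17 with alisertib, 0.31 in column A100 and 0.79 in column MK (interval 0.34 to 1.24, p = 0.000628, adjusted p = 0.0880) in the authors' deposited table. NFKBIE, which encodes IkB epsilon, stood at -0.14, -0.19 and -0.19 with JB170, alisertib and column A100 and at 0.32 in column MK (p = 0.0446, adjusted p = 0.567) in the authors' deposited table. CYLD, a deubiquitinase that restrains the pathway, had 0.26 with alisertib and 0.36 in column A100 (p = 0.0359, adjusted p = 0.416) in the authors' deposited table. NFKBIB, NFKBIZ and the A20-binding proteins TNIP1 and TNIP2 had no unadjusted p under 0.05; their values ran from -0.42 (NFKBIZ with JB170) to 0.28 (NFKBIZ in column A100) in the authors' deposited table. In column MK all 9 genes of this group lay above 0, with a median of 0.12, beside 49.9% of all genes above 0.

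None of the 6 adaptors and kinases was called. The ubiquitin ligase BIRC2 and the NOD-pathway kinase RIPK2, together with TRAF2, the adaptor of tumour necrosis factor receptors, had values between -0.20 and 0.21 over all columns in the authors' deposited table. TRAF2 with alisertib, at -0.20, had the smallest p of the group there (p = 0.0646, adjusted p = 0.364 in the authors' deposited table). MAP3K8, the kinase that feeds the ERK branch downstream of Toll-like receptors, was not called; the authors' deposited table gave -0.33 with JB170 and 0.20 with alisertib. TRAF1 ran from -0.20 to 0.23 and IRAK2 from -0.92 to 0.19 in the authors' deposited table, the latter with intervals that reach beyond 1 in every column.

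The surface receptor TNFRSF1B, the second receptor of tumour necrosis factor, stood at 0.07 with JB170, 0.21 with alisertib (p = 0.0118, adjusted p = 0.138), 0.18 in column A100 and 0.18 in column MK in the authors' deposited table. PLAUR, the urokinase receptor, stood at 0.07, 0.13 and 0.09 in the first 3 of these and at 0.44 in column MK (interval 0.15 to 0.74, p = 0.00337, adjusted p = 0.220) in the authors' deposited table. Neither receptor was called.

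The cytokines and their antagonist held 2 of the 3 calls. IL1RN encodes the interleukin-1 receptor antagonist, a secreted protein that blocks the interleukin-1 receptor; its gene (ENSG00000136689) lies on chromosome 2 from 113099360 to 113134014 in the GRCh38.p14 annotation. It rose by 0.56 with alisertib, a 1.47-fold change (interval 0.21 to 0.91, p = 0.00184, adjusted p = 0.0396 in the authors' deposited table). Its value was 0.25 with JB170 (interval -0.14 to 0.64), 0.58 in column A100 (p = 0.00118, adjusted p = 0.0757) and 0.28 in column MK in the authors' deposited table. Column A100 thus gave a slightly larger value and a smaller p than alisertib but missed the adjusted threshold. Of 12 markers of the line 3 were called with alisertib, beside 5.92% of all genes. These were CSF1R (0.69), CD68 (0.68) and PTPRC (0.37), all higher. HOXA9 (0.71), LYZ (0.24) and MPO (0.19) also lay above 0. Below 0 lay CD14 (-0.61), CD33 (-0.16), MEIS1 (-0.08), FLT3 (-0.07), ITGAM (-0.05) and SPI1 (-0.05). The 12 had a median of 0.07 in the authors' deposited table. In column A100 CD68 (0.49) and CSF1R (0.46) were called as well. The part of these markers in the result was not tested.

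IL1B, the pro-inflammatory cytokine of the same receptor, lies on chromosome 2 from 112829751 to 112836779 in the same annotation (ENSG00000125538). It rose by 2.36 in column MK, a 5.13-fold change (interval 1.13 to 3.59, p = 0.000168, adjusted p = 0.0436 in the authors' deposited table). It stood at 1.98 in column A100 (interval 0.62 to 3.34, p = 0.00435, adjusted p = 0.154), 1.55 with alisertib (0.05 to 3.04, p = 0.0425, adjusted p = 0.289) and 1.21 with JB170 (-0.42 to 2.84, p = 0.146, adjusted p = 1) in the authors' deposited table. The mean level of IL1B was 0.44 log2 CPM, a low level, and the DMSO group was taken to be the same in every column. What single DMSO libraries contribute was not tested, since values per library were not analysed here.

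The other cytokines and chemokines were not called. CCL2, the chief chemoattractant of monocytes, stood at -1.09 with alisertib (interval -1.99 to -0.19, p = 0.0174, adjusted p = 0.174), at 0.14 with JB170, -0.19 in column A100 and 0.66 in column MK (p = 0.0705, adjusted p = 0.635) in the authors' deposited table. TNF, the gene of tumour necrosis factor, stood at -0.16 with JB170, -0.03 with alisertib, -0.07 in column A100 and 0.15 in column MK in the authors' deposited table, with all 4 intervals within 0.5 of 0. IL8, the neutrophil chemokine also written CXCL8, ran from -0.20 to 0.50 and LTB, which encodes lymphotoxin beta, from -0.28 to 0.12 in the authors' deposited table.

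Among the other targets IER3, an early response gene that modulates cell survival (ENSG00000137331, chromosome 6 from 30743199 to 30744547 in GRCh38.p14), rose by 1.36 in column MK. This was a 2.57-fold change (interval 0.69 to 2.04, p = 8.22e-05, adjusted p = 0.0268 in the authors' deposited table) at a mean of 1.73 log2 CPM. It stood at 0.80 in column A100 (p = 0.0303, adjusted p = 0.392), 0.44 with JB170 and 0.03 with alisertib (interval -0.86 to 0.93) in the authors' deposited table. TNFAIP2, a target induced by tumour necrosis factor in myeloid and endothelial cells, stood at 0.17, 0.22, 0.21 and 0.32 with JB170, alisertib, column A100 and column MK, with p-values of 0.0854, 0.0221, 0.0291 and 0.0224 and a lowest adjusted p of 0.200 (with alisertib) in the authors' deposited table. ICAM1, the leukocyte adhesion molecule, had -0.20 with alisertib and 0.36 in column A100 (p = 0.0339, adjusted p = 0.411) in the authors' deposited table. SOD2, the mitochondrial superoxide dismutase, had -0.03 with alisertib and 0.17 with JB170 (p = 0.0752, adjusted p = 1) in the authors' deposited table. PTGS2, the inducible cyclooxygenase, had a smallest p of 0.506 (with alisertib) at a mean of 0.33 log2 CPM in the authors' deposited table.

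As a group the members lay near all genes with JB170 and with alisertib, and above them in column MK. The median over the 33 members was 0.00 with JB170, where that of all genes was 0.00, and 0.03 with alisertib, where that of all genes was 0.01, in the authors' deposited table. It was 0.09 in column A100, with 22 members above 0, and 0.19 in column MK, with 30 of 33 above 0 and all genes at a median of -0.00061, in the authors' deposited table. RELA, TRAF2 and LTB were the 3 members below 0 in column MK. All 8 members with an unadjusted p under 0.05 there were higher than DMSO: RELB, NFKBIA, NFKBIE, BCL3, PLAUR, IL1B, TNFAIP2 and IER3. In that direction 4.06% of all genes had an unadjusted p under 0.05. Among the 23 members at 3 log2 CPM or more, the median in column MK was 0.18 and 21 lay above 0. These counts describe the list, and no test of the list was made.

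**Figure D2:**
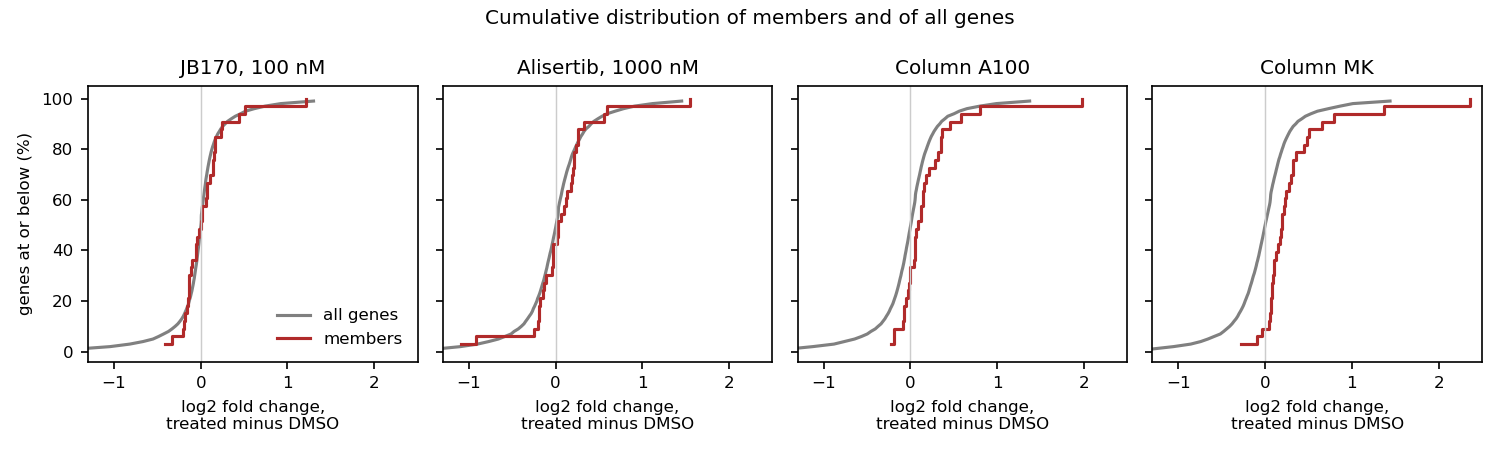
Share of genes at or below a given log2 fold change against DMSO, for the 33 members (red steps) and for all 13410 genes of the table (grey, drawn at the 1st to 99th percentile), in each comparison. The curves run together with JB170 and alisertib, and in column MK the red steps lie to the right, with 30 of 33 members above 0.

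Whether columns differed from each other was asked with an approximate test of the difference of 2 fold changes, over all genes, for 4 pairs of columns. With the shared DMSO libraries left in the error, no member passed in any pair at an adjusted p under 0.05. For alisertib minus JB170, compounds given at 1000 and 100 nM, 0.283% of all genes passed, and 1 member had an unadjusted p under 0.05, beside 4.63% of all genes. That member was CCL2, with a difference of -1.23 (interval -2.44 to -0.02, p = 0.0466, adjusted p = 0.999, worked back from the authors' p-values). For IL1RN the difference between alisertib and JB170 was 0.31 (interval -0.22 to 0.83). Both readings rest on the inferred sign of the JB170 column. Were that sign turned, CCL2 would have a difference of -0.95 (interval -2.17 to 0.26) and IL1RN one of 0.81 worked back from the authors' values (interval 0.28 to 1.33, adjusted p = 0.0535). With the sign turned, 6 members (REL, TRAF2, TNFRSF1B, IL1B, IL1RN and TNFAIP2) would have an unadjusted p under 0.05, beside 16.8% of all genes. For column A100 minus JB170 no member had an unadjusted p under 0.05, beside 1.28% of all genes, and 0.0522% passed. With the sign turned, 9 members would have one, IL1B (3.19), IER3 (1.24), REL (0.97) and IL1RN (0.83) with the largest differences, beside 13.9% of all genes. No member passed the adjusted threshold in either pair with the sign turned.

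For alisertib minus column A100, where the JB170 sign plays no part, ICAM1 had an unadjusted p under 0.05, with a difference of -0.56 worked back from the authors' values (interval -1.05 to -0.07, p = 0.0240, adjusted p = 1), beside 2.37% of all genes, and 0.0895% of all genes passed. These tests leave the DMSO libraries in the error of both columns, which makes it too large where the columns share those libraries. For columns A100 and MK the sharing was assumed. With the shared DMSO libraries taken off, CCL2 and TNFAIP3 joined ICAM1 in this pair, beside 9.26% of all genes. For alisertib minus JB170 the members with an unadjusted p under 0.05 were then 4 (CCL2, TNFAIP3, MAP3K8 and SOD2), beside 13.1% of all genes, and for column A100 minus JB170 NFKB2 alone, beside 6.31%. None of these passed the adjusted threshold.

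With the JB170 sign as inferred here, column MK minus alisertib gave the most members with an unadjusted p under 0.05. For 4 of 33 members (12.1%) the unadjusted p was under 0.05, all of them higher in column MK, beside 3.80% of all genes, while 0.0820% of all genes passed the adjusted threshold. Worked back from the authors' values, they were CCL2 (difference 1.75, interval 0.60 to 2.90, adjusted p = 0.685), RELB (0.73, 0.19 to 1.28, adjusted p = 0.875), NFKBIE (0.51, 0.11 to 0.91, adjusted p = 0.999) and IER3 (1.33, 0.21 to 2.46, adjusted p = 0.999). With the shared DMSO libraries taken off the error implied by the authors' p-values, CCL2 (adjusted p = 0.00585), RELB (adjusted p = 0.0189) and NFKBIE (adjusted p = 0.0354) passed, beside 1.74% of all genes, and IER3 did not (adjusted p = 0.0567). These calls hold only if both columns share the DMSO libraries, which was assumed for column MK.

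**Figure D3:**
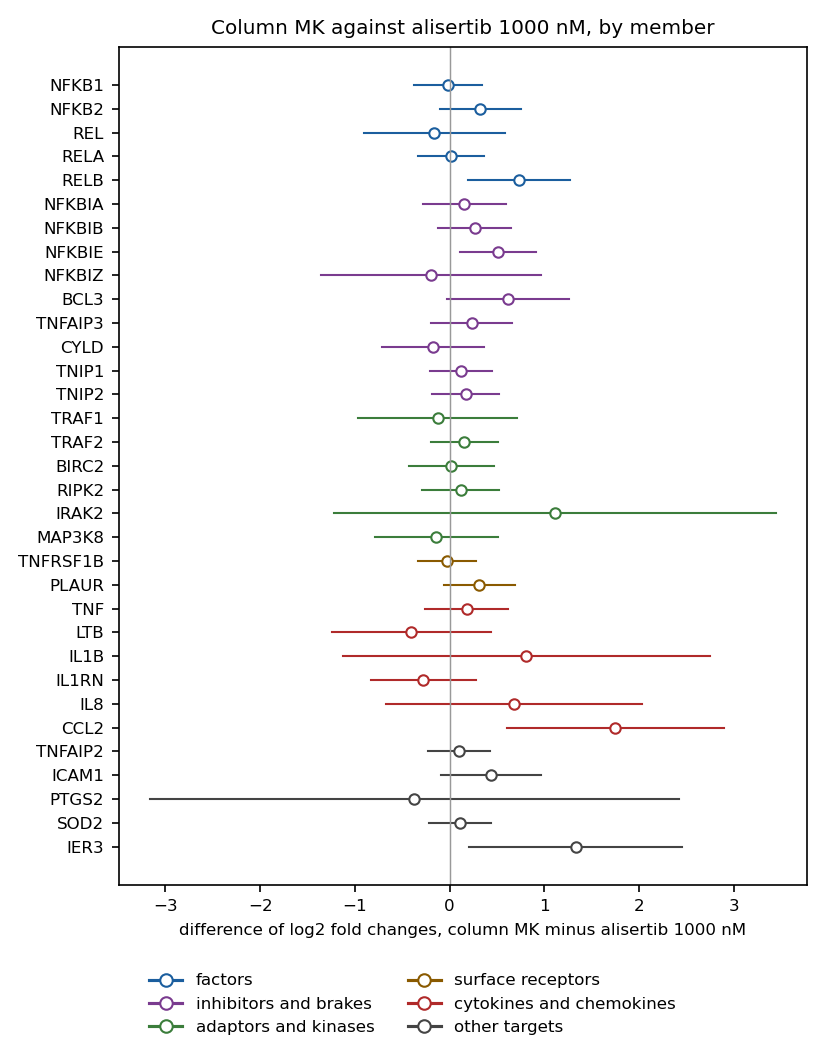
Difference of the log2 fold changes of column MK and 1000 nM alisertib for each of the 33 members, coloured by role; bars are 95% intervals with the shared DMSO libraries left in the error. The intervals of CCL2, RELB, NFKBIE and IER3 lie above 0 (1.75, 0.73, 0.51 and 1.33), and no member passed at an adjusted p under 0.05.

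Other genes of the pathway were taken from a list of 113 receptors, adaptors, mediators and targets, of which 88 had an entry. With JB170 none of the 88 was called in the authors' deposited table. With alisertib 7 rose and 4 fell, 12.5% of the 88 beside 5.92% of all genes, in the authors' deposited table. In column A100 3 rose (3.41% beside 1.30%), and in column MK 1 rose (1.14% beside 0.470%), with none called lower, in the authors' deposited table. The median over the 88 genes was 0.01 both with alisertib and in column MK in the authors' deposited table.

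Upstream of the factors, 4 adaptors and kinases of 37 were called with alisertib. MYD88, the adaptor of Toll-like and interleukin-1 receptors, rose; the authors' deposited table gives 0.38 (adjusted p = 0.0143). IRAK1, the kinase that MYD88 recruits, fell by 0.24, and IRAK3, a brake on the same complex in monocytes, fell by 0.31, with adjusted p-values of 0.0340 and 0.0163 in the authors' deposited table. The authors' deposited table has AZI2, an adaptor of the kinase TBK1, lower by 0.44 (log2 fold change -0.44, adjusted p = 0.0398). NOD2, a cytosolic sensor of bacterial cell wall fragments, was called among 16 receptors and sensors, and rose by 0.57 with alisertib (adjusted p = 0.000605 in the authors' deposited table). None of these 5 genes was called with JB170, where the authors' deposited table has them between -0.17 and 0.10. They were not called in columns A100 and MK either. MYD88, IRAK1, IRAK3, AZI2 and NOD2 stood at 0.31, -0.12, -0.45, -0.38 and 0.18 in column MK. In column A100 they stood at 0.14, 0.04, -0.07, -0.35 and 0.22.

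Of 35 further mediators and targets 5 rose and 1 fell with alisertib. HMOX1, the stress-induced haem oxygenase, rose by 2.53 with alisertib (interval 2.08 to 2.98, adjusted p = 2.77e-24), by 1.89 in column A100 (adjusted p = 4.99e-10) and by 2.35 in column MK (adjusted p = 4.89e-15) in the authors' deposited table. With JB170 HMOX1 stood at 0.92 (p = 0.00299, adjusted p = 1) in the authors' deposited table. FTH1, the heavy chain of ferritin, rose by 0.48 with alisertib (adjusted p = 1.83e-05) and by 0.38 in column A100 (adjusted p = 0.00956), and SQSTM1, an autophagy receptor, rose by 0.51 with alisertib (adjusted p = 1.72e-05), in the authors' deposited table. F3, which encodes tissue factor, rose by 0.61 and the adhesion receptor CD44 by 0.28 with alisertib, with adjusted p-values of 1.19e-06 and 0.0364 in the authors' deposited table. VEGFA, the vascular growth factor, fell by 0.69 with alisertib (adjusted p = 4.40e-05 in the authors' deposited table). SQSTM1, F3, CD44 and VEGFA were not called in columns A100 and MK but had the same sign there. They stood at 0.31, 0.27, 0.31 and -0.42 in column A100 and at 0.47, 0.31, 0.09 and -0.46 in column MK. With JB170 they stood at 0.12, 0.02, 0.05 and -0.25. FTH1, not called in column MK, stood at 0.43 there. THBD, the anticoagulant thrombomodulin, rose by 0.44 in column A100 (adjusted p = 0.00695 in the authors' deposited table). It stood at 0.05 with alisertib and 0.47 in column MK (adjusted p = 0.116 in the authors' deposited table). HMOX1, FTH1 and SQSTM1 are also known as targets of the oxidative stress factor NRF2.

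**Figure D4:**
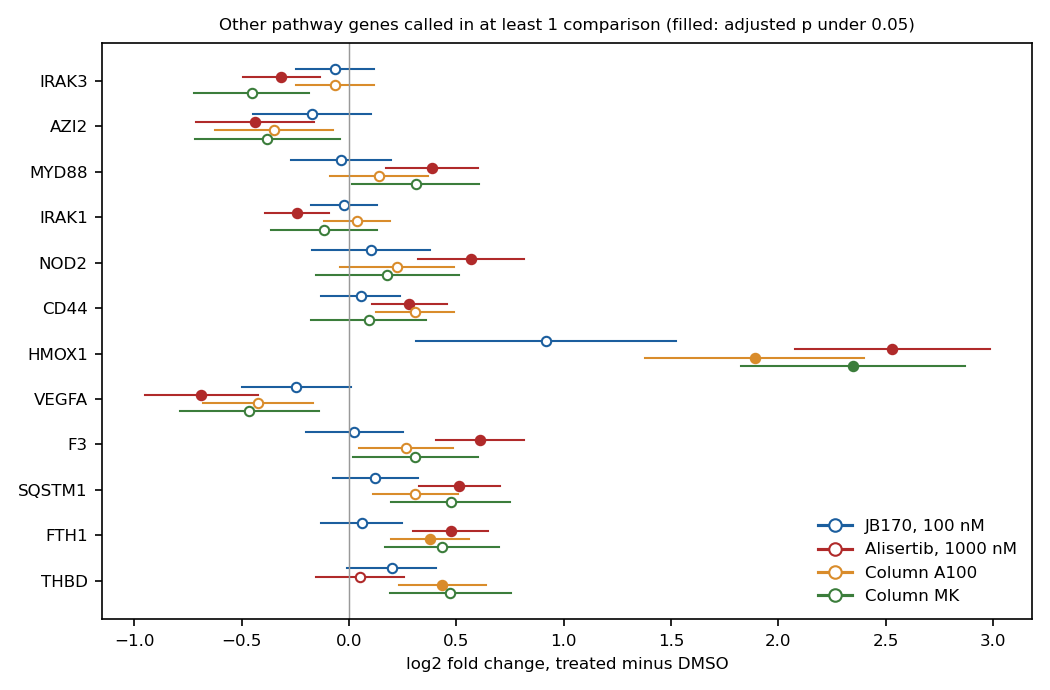
Log2 fold change against DMSO of the 12 other pathway genes called in at least 1 comparison, with 95% intervals worked back from the authors' p-values; colours are the comparisons and filled points have an adjusted p under 0.05. HMOX1 stands farthest from 0, at 2.53 with alisertib, 2.35 in column MK, 1.89 in column A100 and 0.92 with JB170.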

How the data were processed

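RNA of 9 MV4-11 libraries was sequenced from poly(A)-selected, directional libraries, as the labels' protocols have it. Per the submitters' processing notes the tools were TopHat2 2.1.1, Bowtie2 2.3.2 and FastQC, with build hg19; how reads were counted, normalized and tested is not given in the sources used here. Per the file headers, the authors' table gives log2 fold changes, p-values and adjusted p-values of DMSO against 4 treatments, and 1 deposited column of mean log2 CPM, with no word on its libraries. Its adjusted p-values have the ratios of a Benjamini-Hochberg adjustment over 16812 tests, of which 3402 were not analysed here. With no values per library, depth and counting error are unknown. The first of 80 entries with 5 repeated identifiers was kept.

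Column A1000 was read as 1000 nM alisertib by its dose. As deposited, the JB170 column had a Pearson's r of -0.49, -0.53 and -0.45 with A1000, A100 and MK, and the other pairs 0.53, 0.51 and 0.49, over genes, where a shared DMSO group gives positive values when columns are coded alike. The median log2 implied error of positive minus negative genes (absolute log2 fold change of at least 1) was 0.26, 0.25 and 0.17 in A1000, A100 and MK and 0.02 in JB170, so a positive value in those 3 was read as lower in treated cells, where fewer reads give a larger error. This assumes that the mean level follows the DMSO libraries. These columns were multiplied by -1. The direction is inferred.

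A gene was called at the authors' adjusted p under 0.05. The standard error was the fold change divided by the z of its p-value. For z under 1 it was the median error within the gene's bin, of 60 bins of mean log2 CPM. Differences between columns used the normal distribution, two-sided, and Benjamini-Hochberg adjustment over 13410 genes (scipy 1.17.1). The procedure was run on simulated data in which both columns had the same error, so columns of unequal error were not covered. Alternatives changed the threshold, the adjustment, a minimum level or fold, the direction, the centre and the shared error. All measured members are named; those called in any column are given in every column, with the 3 smallest p-values of the others in each. Members and lists were chosen with earlier results of these data known.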

Additional observations from a re-analysis of the deposited data

How the results depend on the processing

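The number of members called stayed at 0 with JB170 under every threshold, adjustment and filter tried. With alisertib it was 1 in each of them but an adjusted p under 0.01, where it was 0. In column A100 it was 0 in each but an adjusted p under 0.10, where it was 1. In column MK it was 2 in the others or 3 at an adjusted p under 0.10, 0 at an adjusted p under 0.01, and 1 with a mean log2 CPM of at least 1, a filter that takes out IL1B. The median of the members with JB170, 0.00096, turned to -0.00096 with the JB170 column read the other way. It was -0.0026 when centred on all genes, so it has no stable sign. The alternative of direction turned JB170 only, so it could not change the sign of the other medians. These kept their sign in the remaining alternatives. In column MK minus alisertib, 3 members passed in place of 0 with the shared DMSO libraries taken off the error. This assumes groups of like error and the same DMSO libraries in both columns. In the other pairs 0 passed in each alternative. Leaving out each replicate was not run, since values per library were not analysed here. No paired analysis was possible because the table holds comparisons and no values per library. Depth is unknown, and wide intervals limit what can be said of IL1B, IRAK2, IL8 and PTGS2.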

Other observations

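Members with and without a kappaB match in the promoter window did not fall in the same order in every comparison. In column MK the 8 members with a match had a median log2 fold change of 0.08 and the 19 without a match one of 0.19, in the authors' deposited table. The medians were 0.18 and 0.02 with alisertib, 0.10 and 0.09 in column A100, and 0.06 and -0.05 with JB170 in the authors' deposited table. Of the 8 and the 19, an unadjusted p under 0.05 was held by 2 and 3 in column MK, 0 and 4 with alisertib, 0 and 6 in column A100, and 1 and 0 with JB170 in the authors' deposited table. The order of the 2 sets thus differed between columns, the difference was not tested, and a match is a run of letters and not a bound site.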
